A study of Mus musculus with 13 samples.

Results

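The 8 genes examined here mark the alveolar type 1 cell of the lung, and were followed in melanoma cells recovered from lung metastases. They were Ager, Hopx, Aqp5, Rtkn2, Cldn18, Pdpn, Emp2 and Clic5, given as a list of symbols and found by matching the table's mouse Ensembl identifiers to GENCODE M21. All 8 of 8 were present among the 22656 genes of the table, and 7 passed the filter on low genes (average over the 13 libraries of 10 normalised counts or more). Hopx did not. The other 7 had reads in all 13 libraries.

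The cells were B16F10-TR-shApoe, a derivative of the mouse melanoma line B16F10 with a short hairpin RNA that targets mouse Apoe, and every library of either group comes from this derivative. They were injected into the tail vein of knock-in mice with human APOE2 (8 libraries, as many as the mice stated) or human APOE3 (5 libraries, likewise). Lungs were digested with collagenase on day 15. Living GFP-positive cells without the leukocyte antigen CD45 were sorted, and total RNA was sequenced from the poly(A) end with the QuantSeq forward kit. Host age, sex and batch were not given in the sources used here. Recovered reads ranged from 7080308 to 13039989 per library. The melanocyte genes Dct, Pmel, Tyrp1 and the other 6 of a list of 9 had reads in every library. Their summed level ran from 303174 to 462223 normalised counts in APOE2 and from 220575 to 334527 in APOE3. Most of that sum was Dct, a pigment enzyme with a mean of 200932 over all libraries. Its log2 fold change was 0.64 (limma adjusted p = 0.126), and edgeR (adjusted p = 0.0467) and DESeq2 (adjusted p = 0.00796) called it higher in APOE2. Of the 12403 genes tested, edgeR called 61 and DESeq2 153 higher. In the melanocyte list edgeR called 1 of 9 higher. The list's median log2 fold change was 0.069, and 3 of the 9 were below 0. Of 13 leukocyte genes 8 were at 0 in at least 1 library. The other 5 (Ptprc, Cd68, Cd74, Laptm5 and Fcer1g) had reads in all libraries, and the list summed to between 102 and 322 normalised counts in APOE2 and between 240.2 and 408 in APOE3.

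Alveolar type 1 cells are the thin, flat epithelial cells that form most of the gas exchange surface. They lie beside the cuboidal type 2 cells, which make surfactant and can give rise to type 1 cells during development and repair. The transcription factor NKX2-1 acts in both cell types, and YAP and TAZ with their TEAD partners favour the type 1 state. The sort was designed to keep tumour cells, so the 8 genes read RNA that is not typical of melanocytes, with the exception of members such as Pdpn and Emp2 that many cell types make. In bulk libraries, fewer cells of a type and less RNA per cell cannot be told apart.

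Sequences upstream of 4 members are shown for the 3 genes with the largest differences between host genotypes and for Hopx, whose upstream window alone held a searched motif. Each is the stretch of 250 bases before the RefSeq gene start (GRCm38.p6), read 5′ to 3′ on the gene's strand. They lie at chr17:34597600-34597849 (plus strand) for Ager, chr9:99717268-99717517 (minus) for Cldn18, chr16:10313969-10314218 (minus) for Emp2 and chr5:77115124-77115373 (minus) for Hopx. Capitals mark a match to CTCAAG or its reverse complement CTTGAG, letters that hold the CAAG core bound by NKX2-1, or to the TEAD motif GGAATG or its reverse complement CATTCC.
Ager upstream: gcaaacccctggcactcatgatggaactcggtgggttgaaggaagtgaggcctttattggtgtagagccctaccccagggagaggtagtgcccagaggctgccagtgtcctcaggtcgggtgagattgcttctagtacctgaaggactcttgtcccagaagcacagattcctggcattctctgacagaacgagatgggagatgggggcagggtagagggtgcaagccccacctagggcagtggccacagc
Cldn18 upstream: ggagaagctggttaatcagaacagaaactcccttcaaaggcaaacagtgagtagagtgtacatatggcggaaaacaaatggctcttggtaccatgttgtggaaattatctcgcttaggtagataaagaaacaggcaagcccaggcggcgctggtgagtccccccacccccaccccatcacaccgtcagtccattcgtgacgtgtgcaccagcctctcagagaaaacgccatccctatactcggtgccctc
Emp2 upstream: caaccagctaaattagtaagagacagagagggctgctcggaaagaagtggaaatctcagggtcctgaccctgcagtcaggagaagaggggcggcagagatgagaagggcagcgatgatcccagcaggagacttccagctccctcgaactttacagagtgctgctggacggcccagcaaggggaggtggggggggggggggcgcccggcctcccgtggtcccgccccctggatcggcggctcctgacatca
Hopx upstream: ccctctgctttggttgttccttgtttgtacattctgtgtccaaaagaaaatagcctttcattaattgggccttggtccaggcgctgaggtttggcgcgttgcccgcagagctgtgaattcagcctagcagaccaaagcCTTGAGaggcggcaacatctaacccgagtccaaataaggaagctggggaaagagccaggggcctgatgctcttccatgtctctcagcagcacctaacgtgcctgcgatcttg
The RefSeq table held 9 windows for 7 of the 8 members. The entry for Rtkn2 was missing. CTCAAG on either strand occurred in 1 of the 9 windows, that of Hopx, and GGAATG on either strand in 0. Over all 32851 windows of this length the shares were 13.3% and 12.6%. A match is a string of letters and not a tested binding site.

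The question was whether RNA of these cells differed with the human apolipoprotein E allele of the host. All 7 members past the filter had a lower mean log2 value in APOE2 hosts, but limma called 0 of 7 after Benjamini-Hochberg adjustment (threshold 0.05). Before adjustment 4 were under that threshold, namely Cldn18, Ager, Emp2 and Rtkn2, all lower in APOE2. Over the 12403 genes tested, 0.379% were called lower in APOE2 after adjustment while 6.71% were lower and 7.51% higher at an unadjusted p-value under 0.05. A log2 fold change under −1 was found for 5 of the 7, against 4.18% of all genes tested. The median log2 fold change of the 7 was −1.26, and that of all genes tested was 0.00037. Over all 8 members, Hopx included, the median difference of mean log2 values was −1.20. Run on the recovered reads, edgeR's quasi-likelihood test called 2 members lower, Cldn18 and Emp2, against 0.621% of all genes. DESeq2 called 1, Emp2, against 1.27%. With a pseudocount of 5 limma called 1, Cldn18 (adjusted p = 0.0294), against 0.589%. Without APOE3 replicate 1, limma called 3 members lower, Ager, Cldn18 and Emp2, with adjusted p-values from 0.0185 to 0.0384, against 0.781% of all genes. No member had all 8 APOE2 libraries below all 5 APOE3 libraries, a separation found for 0.508% of genes tested.

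**Figure D1:**
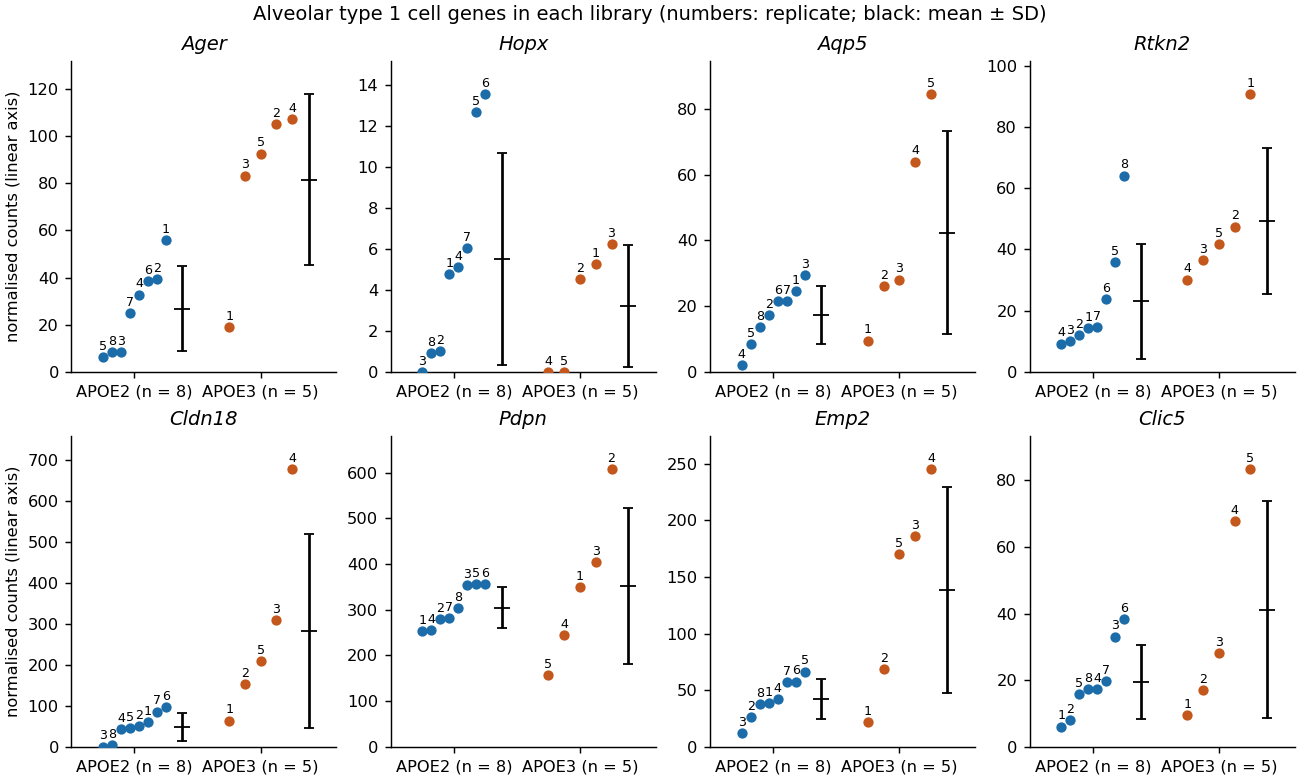
Normalised counts (vertical, linear axis) of the 8 alveolar type 1 genes in each library of APOE2 (8 points) and APOE3 hosts (5 points), with replicate numbers above the points and mean ± SD in black. For Ager, Cldn18 and Emp2, 4 APOE3 libraries lie above every APOE2 library and APOE3 replicate 1 lies within the APOE2 range. For Pdpn the APOE2 libraries all lie inside the wider APOE3 range.

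Of the membrane receptors, Ager came first. Ager (ENSMUSG00000015452, chr17:34597862-34600936, plus strand, GRCm38) encodes RAGE, a receptor for HMGB1 and S100 proteins that type 1 cells carry on their basal side. In APOE2 the lowest library had 6.34 normalised counts, the median was 28.9 and the highest was 55.9. The 5 APOE3 libraries had 19.0, 105, 83.3, 107 and 92.6 in replicates 1 to 5. Replicates 2 to 5 of APOE3 were above every APOE2 library, and replicate 1 was below 5 of the 8. The means were 26.8 ± 18.1 (SD, n = 8) and 81.4 ± 36.3 (SD, n = 5). On the log2(value + 1) scale the fold change was −1.71 ± 0.55 (SE, limma adjusted p = 0.154). All 8 APOE2 libraries were below the APOE3 mean of log2 values. Ager rested on 6 to 82 reads per APOE2 library and 18 to 114 per APOE3 library. Its coefficient of variation in APOE2 was 67.4%, against 18.3% from counting alone.

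The ligands of RAGE and its cytoplasmic effector were examined beside the receptor. All 7 genes of the list (Hmgb1, S100b, S100a4, S100a6, S100a8, S100a9 and Diaph1) passed the filter, and limma called 0 of them. None had an unadjusted p-value under 0.05, and edgeR also called 0. The median log2 fold change was −0.18. The smallest unadjusted p was that of S100a6, a calcium-binding protein, with a log2 fold change of −0.46 ± 0.27 (SE) and a limma adjusted p of 0.452.

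The tight junction gene Cldn18 had the largest difference of the 8. Cldn18 (ENSMUSG00000032473, chr9:99689461-99717267, minus strand) encodes claudin-18, which seals the alveolar epithelium and is made by type 1 and type 2 cells. A lung and a stomach transcript start at different exons, and reads from the poly(A) end do not separate them. In APOE2 the lowest library had 0.919 normalised counts (1 read), the median was 48.4 and the highest was 97.1. In APOE3 replicates 1 to 5 the values were 64.3, 154, 309, 676 and 209. APOE3 replicate 4 alone exceeded the next library more than 2-fold, and 6 of the 8 APOE2 libraries were below the lowest APOE3 library. The means were 48.8 ± 34.2 (SD, n = 8) and 282 ± 237 (SD, n = 5). The log2 fold change was −2.84 ± 0.74 (SE, limma adjusted p = 0.0696) and an interval (95%) from −4.37 to −1.31. With edgeR it was −2.53 and the adjusted p was 0.0222. Without APOE3 replicate 4 it was −2.43 (limma adjusted p = 0.186), and without APOE3 replicate 1 it was −3.27 (limma adjusted p = 0.0278).

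Emp2 was the other member called by a count test. Emp2 (ENSMUSG00000022505, chr16:10281749-10313968, minus strand) encodes a membrane protein of the PMP22 family that is abundant in type 1 cells and present in other cell types. In APOE2 the lowest value was 12.0 normalised counts, the median 40.4 and the highest 66.5. In APOE3 replicates 1 to 5 the values were 22.1, 68.9, 186, 245 and 170.1. As for Ager, APOE3 replicates 2 to 5 were above every APOE2 library, and replicate 1 was below 7 of the 8. The log2 fold change was −1.43 ± 0.48 (SE, limma adjusted p = 0.174). DESeq2 gave −1.72 (adjusted p = 0.00930) and edgeR −1.71 (adjusted p = 0.0469).

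Among the channels, Aqp5 and Clic5 had lower means in APOE2 by amounts within the spread of the libraries. Aqp5 (ENSMUSG00000044217, chr15:99590782-99594829, plus strand) encodes the water channel of the apical type 1 membrane. Its APOE2 values ran from 2.05 to 29.4 normalised counts with a median of 19.3. In APOE3 replicates 1 to 5 they were 9.48, 26.0, 28.1, 64.0 and 84.5. Only APOE3 replicates 4 and 5 were above all APOE2 libraries. The log2 fold change was −1.15 ± 0.62 (SE, limma adjusted p = 0.401). Clic5 (ENSMUSG00000023959, chr17:44188584-44280172, plus strand) encodes a chloride intracellular channel protein that is linked to the cortical actin cytoskeleton. Its lowest, median and highest APOE2 values were 6.13, 17.4 and 38.4. Its APOE3 values in replicates 1 to 5 were 9.48, 16.9, 28.1, 67.8 and 83.3. Again only APOE3 replicates 4 and 5 exceeded every APOE2 library. The log2 fold change was −0.83 ± 0.58 (SE, limma adjusted p = 0.541). It was −0.47 without APOE3 replicate 5. The intervals (95%) of both genes included 0, from −2.42 to 0.12 for Aqp5 and from −2.02 to 0.37 for Clic5.

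Rtkn2 differed from the other members in which libraries were high. Rtkn2 (ENSMUSG00000037846, chr10:67979570-68059740, plus strand) encodes rhotekin 2 and shares exon sequence with Gm16212 on the opposite strand. Whether strand was used in counting was not stated, so its reads could belong to either gene. In APOE2 the lowest value was 9.21 normalised counts, the median 14.5 and the highest 64.1, in replicate 8. In APOE3 replicates 1 to 5 the values were 90.6, 47.5, 36.4, 30.1 and 41.7. APOE3 replicate 1, the lowest of its group for Ager, Aqp5, Cldn18, Emp2 and Clic5, was the highest of all 13 for Rtkn2. The log2 fold change was −1.26 ± 0.50 (SE), with an unadjusted p of 0.0189 and a limma adjusted p of 0.254. In APOE2, 7 of 8 libraries were below the APOE3 mean of log2 values.

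Pdpn and Hopx showed no difference past the spread. Pdpn (ENSMUSG00000028583, chr4:143267431-143299564, minus strand) encodes podoplanin, a mucin-type glycoprotein of type 1 cells that lymphatic endothelium, mesothelium and some fibroblasts also make. It had 254 to 357 normalised counts in APOE2, with a median of 292. In APOE3 replicates 1 to 5 it had 349, 607, 405, 244 and 157. The APOE2 libraries all lay inside the APOE3 range. The log2 fold change was −0.078 ± 0.23 (SE), with an interval (95%) from −0.54 to 0.39 and a limma adjusted p of 0.916. Its coefficient of variation in APOE2 was 14.7%, the lowest of the 8. The sign rested on APOE3 replicates 2 and 3. Without replicate 2 the log2 fold change was 0.15 and without replicate 3 it was 0.0083.

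Hopx (ENSMUSG00000059325, chr5:77086988-77115121, minus strand), a homeodomain protein that does not bind DNA and a widely used type 1 marker, was at the limit of detection. It had 45 reads over the 8 APOE2 libraries and 15 over the 5 APOE3 libraries. Values ran from 0 to 13.5 normalised counts in APOE2 and from 0 to 6.24 in APOE3. It was at 0 in APOE2 replicate 3 and in APOE3 replicates 4 and 5. With 3 reads as the limit that a count of 0 allows, these libraries permit up to 0.323, 0.341 and 0.424 CPM (reads scaled to equal library totals). APOE3 replicates 4 and 5 had the highest values of Aqp5 and Clic5, and replicate 4 those of Ager, Cldn18 and Emp2. In the limma fit without a filter its log2 fold change was 0.60 ± 0.84 (SE), with an adjusted p of 0.798. Hopx overlaps exons of Hopxos on the opposite strand.

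**Figure D2:**
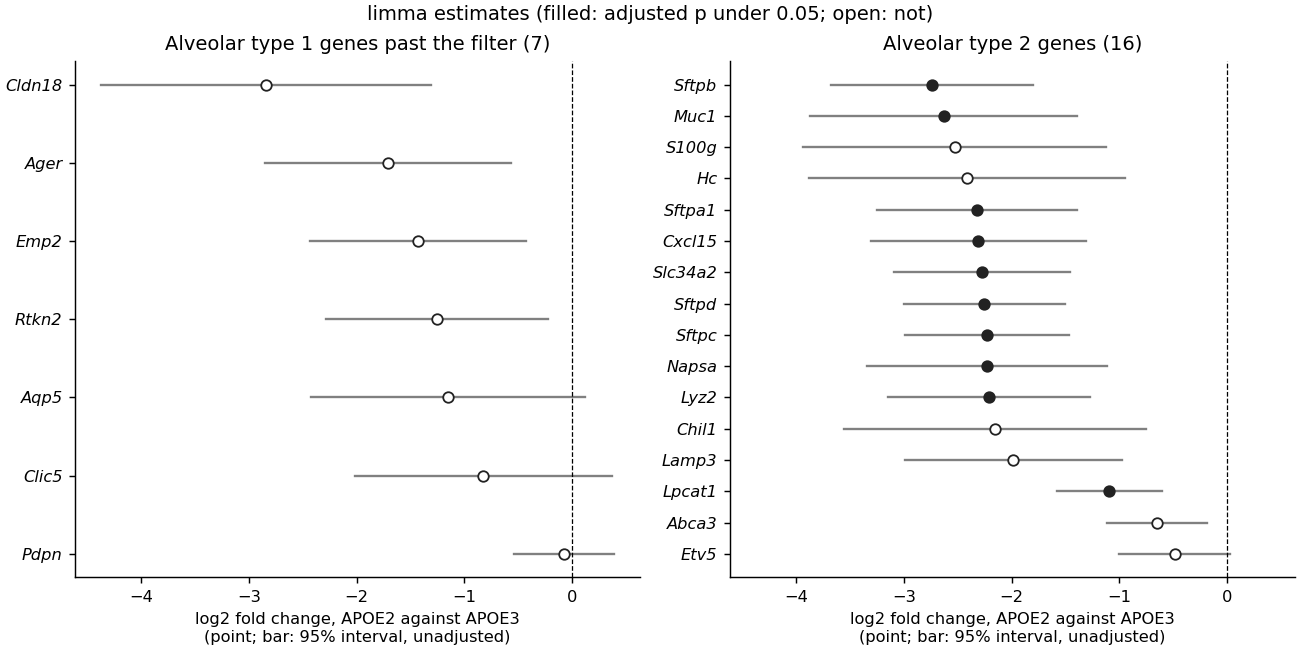
limma log2 fold changes of APOE2 against APOE3 (horizontal) for the 7 alveolar type 1 genes past the filter and for 16 alveolar type 2 genes, with 95% intervals that are not adjusted for multiple testing. Filled points have an adjusted p-value under 0.05: 0 of the 7 type 1 genes and 10 of the 16 type 2 genes.

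A second list of 24 type 1 genes was examined in the same fit, of which 23 were in the table and 13 passed the filter. limma and edgeR called 0 of them. At an unadjusted p-value under 0.05, 6 of the 13 were lower and 0 higher in APOE2, where 6.71% and 7.51% of all genes were. The median log2 fold change of the 13 was −0.60. The smallest unadjusted p was that of Sec14l3, a lipid-binding protein of the Sec14 family, with 9.07 ± 9.83 normalised counts in the 8 APOE2 libraries (mean ± SD) and 54.2 ± 26.7 in the 5 of APOE3. Its log2 fold change was −3.30 ± 0.89 (SE, limma adjusted p = 0.0837). With an APOE2 mean under 10, it passed the filter through APOE3 alone. Limma called it with a pseudocount of 5 (adjusted p = 0.0301) and without APOE3 replicate 1 (adjusted p = 0.0499). The caveolar gene Cav1, which endothelium also makes, had a log2 fold change of −1.01 ± 0.27 (SE) and a limma adjusted p of 0.0860, and DESeq2 called it lower (adjusted p = 0.0231). Several genes of this list were at 0 in 7 or more libraries: Col4a3, Igfbp2, Itgb6, Krt7 and Lama3. Others were present at high levels in every library of either host, such as the small heat shock protein Cryab (5426 to 10940 normalised counts over the 13 libraries).

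Of the alveolar regulators, 12 of 13 passed the filter, and limma and edgeR called 0. At an unadjusted p-value under 0.05, 1 of the 12 was lower and 0 were higher, where 6.71% and 7.51% of all genes were. It was Nkx2-1, with 6.72 ± 5.30 normalised counts in the 8 APOE2 libraries (mean ± SD) and 35.4 ± 18.8 in the 5 of APOE3. Nkx2-1 averaged under 10 in APOE2, so it passed the filter through APOE3 alone. Its log2 fold change was −2.57 ± 0.84 (SE, limma adjusted p = 0.157), and DESeq2 called it lower (−2.39, adjusted p = 0.0453). The median of the 12 was −0.057.

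The neighbouring cell type was read from a list of 16 type 2 genes. All 16 passed the filter, and limma called 10 lower and 0 higher, where 0.379% of all genes were lower. The median log2 fold change was −2.24. The surfactant genes Sftpd, Sftpc and Sftpb had log2 fold changes of −2.25, −2.23 and −2.74, each with a limma adjusted p of 0.00611. Among them, Sftpc, the most specific type 2 gene, was set against Ager in each library, to ask whether the type 1 gene differed by another amount. The log2 value of Ager minus that of Sftpc averaged −5.61 ± 0.67 (SD) over the 8 APOE2 libraries and −6.13 ± 0.54 over the 5 of APOE3. The difference was 0.52. An exact permutation test, two-sided, gave p = 0.176, and with 1287 splits it cannot go below 0.000777. With a pseudocount of 5 it was 0.72 (exact permutation p = 0.0427).

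As shares of all reads, the 8 type 1 genes summed to between 48.6 and 78.7 CPM in APOE2 and between 69.8 and 173 CPM in APOE3. Without Pdpn the ranges were 11.0 to 35.3 and 27.0 to 144. The 16 type 2 genes summed to between 188 and 867 in APOE2 and between 755 and 4480 in APOE3. The lowest APOE3 library was replicate 1 in each of these sums, and the highest was replicate 4.

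The members did not vary together as a single block. After subtraction of each genotype's mean log2 value, the 21 pairs of the 7 members past the filter had Pearson correlations from −0.61 (Ager and Rtkn2) to 0.72 (Cldn18 and Emp2) over the 13 libraries, with a median of 0.058. Ager and Cldn18 had 0.69, and Aqp5 and Clic5 had 0.51. With the mean of the 16 type 2 genes the correlations were 0.82 for Ager, 0.81 for Cldn18 and 0.74 for Emp2. They were 0.39 for Aqp5, 0.22 for Clic5, 0.076 for Hopx, −0.29 for Rtkn2 and −0.35 for Pdpn. High values were also found with other lists. Emp2 had 0.76 with the fibroblast list, 0.76 with the mesothelial list and 0.65 with the blood endothelial list. Ager had 0.70 with the airway list and 0.61 with the fibroblast list, Cldn18 had 0.56 with the fibroblast list, and Pdpn had 0.60 with the melanocyte list. Within the 8 APOE2 libraries alone the correlations with type 2 genes were 0.80 for Ager, 0.77 for Cldn18 and 0.57 for Emp2 (Spearman 0.67, 0.86 and 0.29). For the other members they were 0.47 for Hopx, 0.11 for Aqp5, −0.045 for Rtkn2, −0.30 for Clic5 and −0.54 for Pdpn. None is given for APOE3, which has only 5 libraries. In that group Aqp5, Clic5 and the type 2 mean were all lowest in replicate 1, where Rtkn2 was highest. In APOE2, leaving out the 2 libraries farthest from its median type 2 level gave 0.55 for Ager, 0.76 for Cldn18 and 0.60 for Emp2. For the other members it gave 0.69 for Hopx, 0.64 for Aqp5, −0.29 for Rtkn2, 0.085 for Clic5 and 0.13 for Pdpn. These values are descriptions, and the points of each share a library and its scaling factor.

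**Figure D3:**
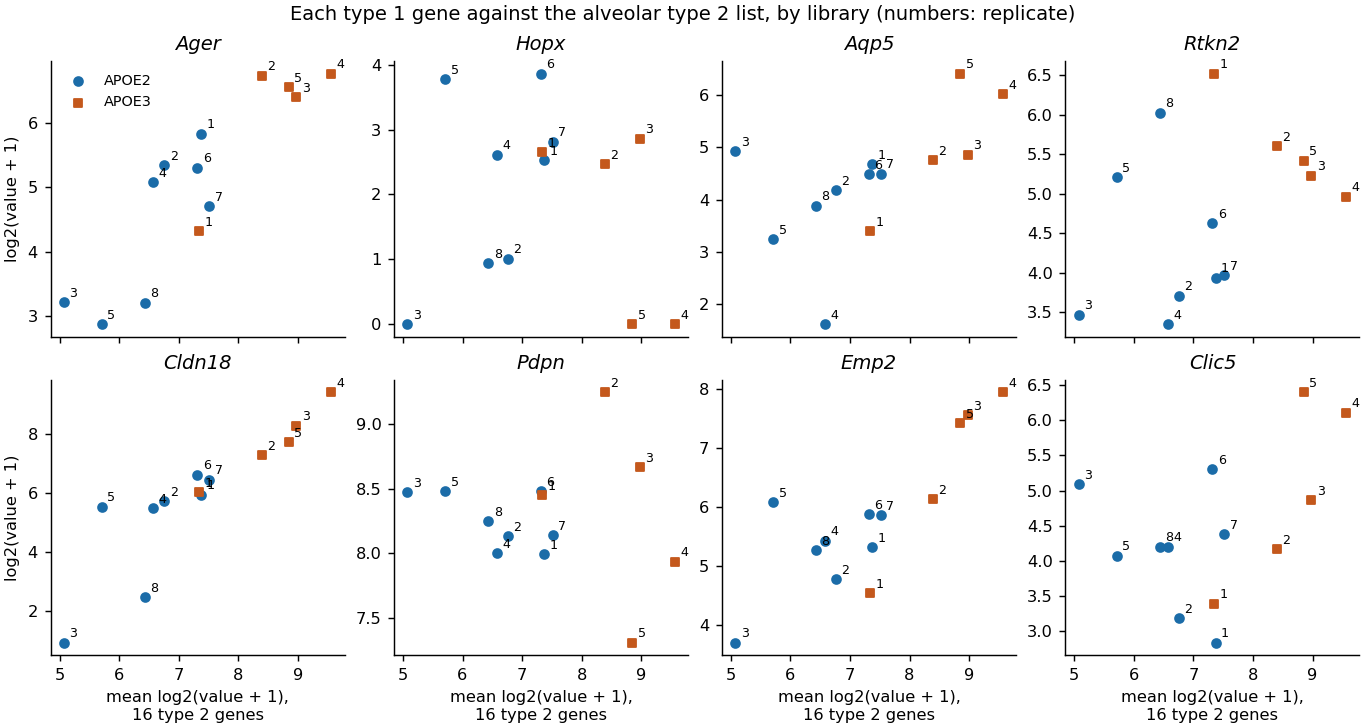
Each panel plots log2(value + 1) of a type 1 gene (vertical) against the mean log2(value + 1) of 16 type 2 genes (horizontal) in APOE2 (circles) and APOE3 (squares) libraries, numbered by replicate. Ager, Cldn18 and Emp2 rise from left to right with the groups' means removed (Pearson 0.82, 0.81 and 0.74), while Rtkn2 (−0.29), Pdpn (−0.35) and Hopx (0.076) do not.

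Outside the list, the 6 genes whose genotype-centred values were most like those of Ager over the 13 libraries were Irx1 (Pearson 0.92), Hp (0.92), Dpt (0.87), Vangl1 (0.86), Dgkh (0.86) and Inf2 (0.85), picked from all genes past the filter. Irx1 encodes a homeobox factor of the lung, Hp the haemoglobin-binding haptoglobin and Dpt a matrix protein of fibroblasts. Their log2 fold changes of −1.77, −1.73 and −2.75 had limma adjusted p-values from 0.0669 to 0.195. Dpt averaged 5.82 normalised counts in APOE2 and passed the filter through APOE3 alone. Vangl1, Dgkh and Inf2 had log2 fold changes of −0.064, −0.39 and 0.11.

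Markers of other cell types were read in the same fit. Of 15 blood endothelial genes 11 were lower at an unadjusted p-value under 0.05, against 6.71% of all genes. Of these 11, Tie1, Tek and Emcn averaged under 10 normalised counts in APOE2 and passed the filter through APOE3 alone. After adjustment limma called 2 of the 15, against 0.379% of all genes. They were Esam (log2 fold change −1.88, limma adjusted p = 0.0290) and Calcrl (−1.60, limma adjusted p = 0.0301). The list's median was −1.60. The endothelial sum ran from 800.1 to 1179 normalised counts in APOE2 and from 1130 to 2293 in APOE3. Its largest part was Eng (mean 400 over all libraries), with a log2 fold change of −0.16. Of smooth muscle genes past the filter limma called 1 of 2, Acta2 (−3.09, limma adjusted p = 0.0216). Of heart muscle genes it called 1 of 7, Myl7 (−3.40, 0.0459), and of leukocyte genes 1 of 4, Cd74 (−2.02, 0.0301). The medians of these lists were −2.07, −2.09 and −0.73. At an unadjusted p-value under 0.05, 1 of 2, 5 of 7 and 1 of 4 were lower. Myl7 was not called by edgeR (adjusted p = 0.0847) or DESeq2 (adjusted p = 0.127). Without APOE2 replicates 1 and 2, limma called 0 of Esam, Calcrl, Acta2, Myl7 and Cd74, with adjusted p-values from 0.0853 to 0.139. When libraries were left out singly, the adjusted p reached 0.0768 for Acta2, 0.0892 for Calcrl, 0.0904 for Esam, 0.0928 for Cd74 and 0.112 for Myl7. Limma called 0 genes of the fibroblast, mesothelial, lymphatic, airway and general epithelial lists. At an unadjusted p-value under 0.05, where 6.71% of all genes were lower, 3 of 7 fibroblast and 2 of 2 general epithelial genes past the filter were lower. For the mesothelial, lymphatic and airway lists it was 0 of 3, 0 of 3 and 0 of 6. edgeR called 1 fibroblast gene and both general epithelial genes, and 0 of the other 3 lists. The airway list had a positive median log2 fold change of 1.42, with 2 of 6 genes below 0. Scgb3a1, Scgb3a2 and Bpifa1 of that list had 0 reads in all 5 APOE3 libraries. They passed the filter through APOE2 alone, which fixed their sign, and each was highest in APOE2 replicate 1 or 2. Of the 8 general epithelial genes, those past the filter were the adhesion gene Cdh1 and the claudin gene Cldn3. Cdh1 had reads in every library, from 11.0 to 195 normalised counts, and a log2 fold change of −1.67 (limma adjusted p = 0.103, edgeR adjusted p = 0.0379). Cldn3 reached 133, with a log2 fold change of −2.86 (limma adjusted p = 0.101, edgeR adjusted p = 0.0239). It averaged 4.57 normalised counts in APOE2 and 48.5 in APOE3, so it passed the filter through APOE3 alone. Epcam of the same list was at 0 in 7 libraries and reached 15.8. Mesothelial and lymphatic cells also make Pdpn. The mesothelial sum lay between 329 and 582 normalised counts in APOE2 libraries and between 345 and 619 in those of APOE3, and Gpm6a made up most of it (285 to 535 and 290.4 to 467). The other 6 mesothelial genes were at 0 in at least 1 library each, and the median difference of mean log2 values over all 7 was −1.29. The lymphatic sum lay between 267 and 418 and between 297 and 356, mostly from Prox1 (mean 268), with Mmrn1 and Reln at 0 in 7 or more libraries. Heart muscle also makes Hopx, and the heart muscle sum lay between 40.4 and 316 in APOE2 libraries and between 277 and 713 in those of APOE3. The part of each cell type in the differences of the type 1 genes was not tested.

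Club cell transcripts were high in 2 APOE2 libraries. Scgb1a1 had 174 and 1065 normalised counts in APOE2 replicates 1 and 2, against 0 to 7.77 in the other 6 and 13.7 to 44.1 in APOE3. Those replicates had 55.9 and 39.4 normalised counts of Ager, the highest of their group. APOE2 replicate 6, with 2.26 of Scgb1a1, had 38.4 of Ager and the group's highest Cldn18 (97.1). Replicates 1 and 2 had 6.13 and 8.08 of Clic5, the lowest of their group. With both left out, a choice made after seeing the data, the log2 fold changes were −2.09 for Ager, −3.15 for Cldn18 and −1.35 for Emp2, and limma called 0 members. Clic5 went from −0.83 to −0.44 in that comparison.

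With the mean of the 16 type 2 genes as a covariate, the genotype term was 0.48 ± 0.70 (SE) for Ager, 0.64 ± 0.79 for Cldn18 and 0.41 ± 0.63 for Emp2, positive where the reported values are negative. It was −0.11 ± 0.97 for Aqp5, −0.30 ± 0.94 for Clic5 and −0.47 ± 0.35 for Pdpn. For Rtkn2 it was −1.82 ± 0.80 (SE), farther from 0 than the reported −1.26, with a limma adjusted p of 0.751. The covariate was itself unequal between groups, with values of 5.08 to 7.52 in APOE2 libraries against 7.34 to 9.56 in those of APOE3, so genotype and type 2 level overlapped only at APOE3 replicate 1. In this fit limma called 0 genes of all tested, and 793 had an unadjusted p-value under 0.05.

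**Figure D4:**
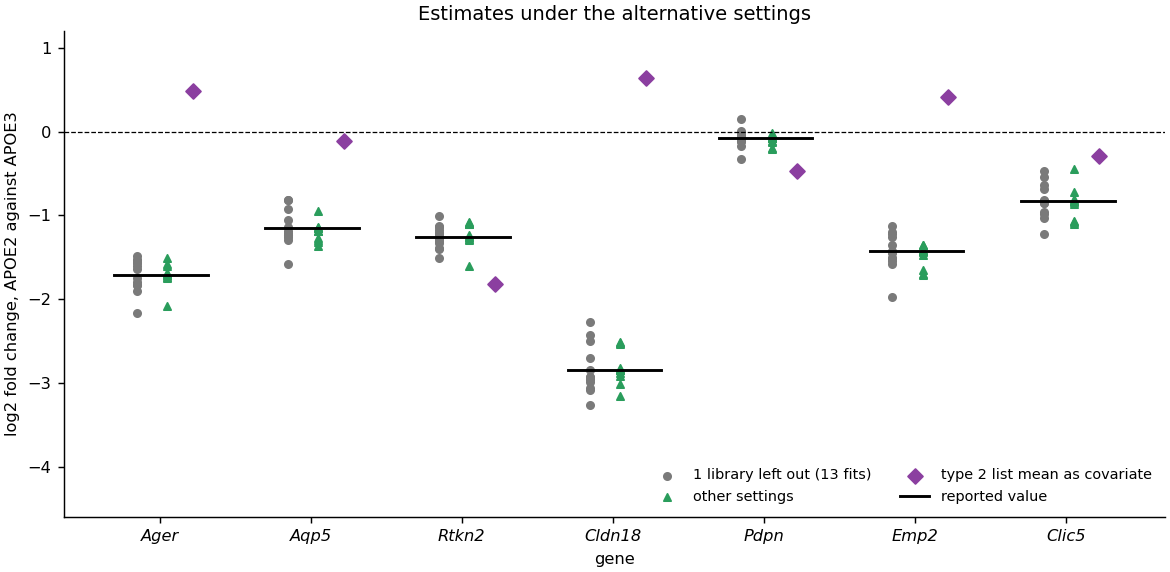
log2 fold change of APOE2 against APOE3 (vertical) of the 7 type 1 genes past the filter under the reported fit (black line), 13 fits that each leave out 1 library (grey), other settings (green) and the fit with the type 2 mean as a covariate (purple diamonds). Cldn18, Ager and Emp2 stay between −3.27 and −1.12 except with the covariate, where they are above 0.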

How the data were processed

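RNA-seq libraries came from tumour cells of 8 APOE2 and 5 APOE3 mice, grouped by the genotype in the labels. What the authors deposited is a single table of normalised counts, that is, a non-negative signal for each gene. The submitters' processing notes name STAR 2.6.0, featureCounts and DESeq2 1.28.1 and the build mm10, with no role or order. The annotation and the strand setting were not given in the sources used here. In every library 100% of nonzero values were whole multiples of 1 step within 0.01, which gave whole reads for the count tests. Symbols and GRCm38 positions came from GENCODE M21 (22649 of 22656 identifiers matched). Upstream windows came from RefSeq (GRCm38.p6).

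The 12403 genes averaging 10 or more normalised counts were tested on log2(value + 1) using limma 3.58.1 (R 4.3.3, trend on intensity, two-sided) and Benjamini-Hochberg adjustment over all genes at 0.05. A larger pseudocount shrinks changes of low genes: that of Ager was −1.74 with a pseudocount of 0.5 and −1.51 with 5. Against edgeR the limma changes of low genes were larger for some (Sec14l3, −3.30 against −2.55) and smaller for others (Clic5, −0.83 against −1.07). The authors' scaling was kept. Alternatives were pseudocounts of 0.5 and 5, equal totals, TMM scaling, no filter, a filter at a mean of 50, omission of single libraries, a block for the replicate number, no trend, edgeR 4.0.16 and DESeq2 1.42.0 on the recovered reads, and the type 2 list mean as a covariate. Leaving out APOE2 replicates 1 and 2 together was added after seeing the data. limma and edgeR were also tested on simulated data. P-values set the difference between genotypes against the spread between libraries, and the limma intervals rest on that spread too. Limits and variation computed from read counts alone cover counting error only.

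Besides the members, 14 gene lists were used. Named genes were all members, up to 5 called genes per list (or the gene with the smallest p), the 6 genes most like Ager, and Sftpc. Ptprc, Cd68, Laptm5, Fcer1g, Cdh1, Epcam, Gpm6a, Prox1, Scgb1a1, Scgb3a1, Scgb3a2, Bpifa1, Tie1, Tek, Emcn, Eng, Cav1 and Cryab were named after their values were seen. Members and lists were chosen with earlier results of these data known.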

Additional observations from a re-analysis of the deposited data

Results flagged for a closer look

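Each genotype was checked for a lone high or low library with Dixon's ratio of gap to range (95% level). In 18 screens over the 8 type 1 genes and the log2 difference of Ager and Sftpc, 2 values stood apart, where chance gives about 0.9. They were in the same library. Ager had 19.0 normalised counts in APOE3 replicate 1, against 83.3 in the next library of the group. Rtkn2 had 90.6 in that replicate, against 47.5 in the next. The library was thus low for Ager and high for Rtkn2. Without it the log2 fold change was −2.17 for Ager (limma adjusted p = 0.0384) and −1.01 for Rtkn2 (limma adjusted p = 0.364).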

How the results depend on the processing

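With the reported settings limma called 47 genes lower and 51 higher in APOE2. The lower and higher counts were 4 and 5 without a filter, 26 and 17 with the replicate block, 13 and 7 without APOE2 replicates 1 and 2, and 0 and 0 without the intensity trend (1599 genes at an unadjusted p-value under 0.05) or with the type 2 covariate (793). DESeq2 gave 158 and 153, edgeR 77 lower, and a pseudocount of 5 gave 73 lower. Leaving out 1 library gave 4 to 97 lower and 5 to 131 higher. The members called lower numbered 1 with a pseudocount of 5 (Cldn18) and with DESeq2, 2 with edgeR and 0 to 3 with 1 library left out. The range of 3 came without APOE3 replicate 1. No setting called a member higher. With the type 2 covariate the sign turned for Ager (0.48), Cldn18 (0.64), Emp2 (0.41), Nkx2-1 (0.16), S100a6 (0.44) and Upk3b (0.70), and the cause was not tested. Pdpn ran from −0.33 to 0.15 with 1 library left out, and was 0.15 and 0.0083 without APOE3 replicates 2 and 3. Ager against Sftpc ran from 0.39 to 0.75 with 1 library left out, was 0.72 with a pseudocount of 5 and 0.80 with the replicate block. The replicate numbers did not pair libraries: correlations of same-numbered deviations ran from −0.063 to 0.014, and 0 of 5 APOE2 libraries correlated best with their own number. The block called 0 members. Depth limits Hopx most, at 0 to 12 reads per library.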
